A study of Mus musculus with 6 samples.

Results

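The genes of the 3 large families of conjugating enzymes were followed in mouse liver after silencing of *Mmab*: the soluble glutathione S-transferases (GST), the UDP-glucuronosyltransferases (UGT) and the cytosolic sulfotransferases (SULT). They were taken as every protein-coding row whose symbol starts with Gsta, Gstk, Gstm, Gsto, Gstp, Gstt, Gstz, Ugt1, Ugt2, Ugt3 or Sult, which gave 49 genes (21 GST, 20 UGT and 8 SULT) of 21297 rows in the table, 14672 of them protein-coding. The rule uses symbols and gene type only, though earlier results of these data were known when it was set. The study asked how loss of MMAB, the mitochondrial adenosyltransferase that makes adenosylcobalamin, alters LDL receptor activity and sterol balance, and total RNA was sequenced from livers of mice given a control antisense oligonucleotide (CON ASO, n = 3) or an oligonucleotide against *Mmab* (MMAB ASO, n = 3). All 6 were male C57BL/6J mice, 8 weeks old at the start, with no engineered allele, injected intraperitoneally at 50 mg/kg weekly over 6 weeks and sampled 48 h after the final dose. The oligonucleotide reaches the whole animal, no group without an oligonucleotide was sequenced, and replicates are numbered 1, 2 and 4 in both groups. The methods state an overnight fast before sampling unless noted otherwise.

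Conjugating enzymes carry out the second phase of detoxification, in which a drug, hormone, bile pigment or lipid aldehyde is joined to a polar group so that it can leave in bile or urine. GSTs add glutathione to electrophiles, UGTs in the membrane of the endoplasmic reticulum add glucuronic acid from UDP-glucuronate, and SULTs in the cytosol add sulfate from the donor PAPS. Hepatocytes carry most of this work, and the genes respond to the nuclear receptors CAR and PXR, the aryl hydrocarbon receptor, NRF2 and, for several of them in mice, the sex-dependent pattern of growth hormone.

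*Mmab* itself was at 6.31, 5.30 and 6.83 CPM (the gene's reads scaled to a common library total) in CON ASO replicates 1, 2 and 4 and at 1.87, 2.69 and 1.80 CPM in the MMAB ASO livers, so each treated liver carried less of the target than any control. Its log2 fold change was -1.55 ± 0.21 (SE, limma adjusted p = 0.00225). From the size of the smallest steps between values, the libraries held an estimated 44.7 to 55.4 M reads, which makes 1 read worth 0.0181 to 0.0224 CPM. CON ASO replicate 1 stood apart: protein-coding genes took 57.0% of its total against 46.2 to 51.1% in the other 5 livers, and a ribosomal RNA row stood at 25994 CPM there against 81353 to 112456 CPM elsewhere. Values without that library are given beside each called member and each called supply or regulator gene below. Because these are whole livers, fewer cells of a type and less RNA per cell cannot be told apart.

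Of the 49 genes, 41 averaged at least 1 CPM over the 6 livers and were tested (19 GST, 17 UGT and 5 SULT). In the limma fit over all 11565 tested genes, 3 of the 41 fell (*Sult1a1*, *Gstt3* and *Gstt1*) and 1 rose (*Gsta4*) at an adjusted p under 0.05. These are 7.32% lower and 2.44% higher, beside 2.22% lower and 1.87% higher among all tested genes. By the looser thresholds of the study, an unadjusted p of at most 0.05 with a fold of at least 1.5, 7 members were lower and 2 higher, or 17.1% and 4.88%, beside 3.55% and 5.52% of all tested genes. The 3 treated livers lay entirely below the 3 controls for 10 members (24.4%) and entirely above them for 5 (12.2%), against 8.91% and 13.8% of all tested genes. The median log2 fold change was -0.11 over the 41 members and 0.034 over all tested genes. By family, the median was -0.19 for GST, 0.0036 for UGT and -0.035 for SULT, and 15 of 19 GST estimates were negative against 8 of 17 for UGT. That sign count depended on the scaling. GST estimates above 0 numbered 4 in the main fit, 7 after quantile normalization and 6 after scaling to the protein-coding sum. The GST median stayed negative under every other scaling tried, whereas that of UGT turned to -0.022 under median-ratio scaling and that of SULT to 0.054 under scaling to the protein-coding sum, which also moved the median of all tested genes to 0.12. The count of 4 rests on the libraries used: it was 9 without CON ASO replicate 2, and only *Sult1a1* was called when replicate 4 of either group was dropped.

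**Figure D1:**
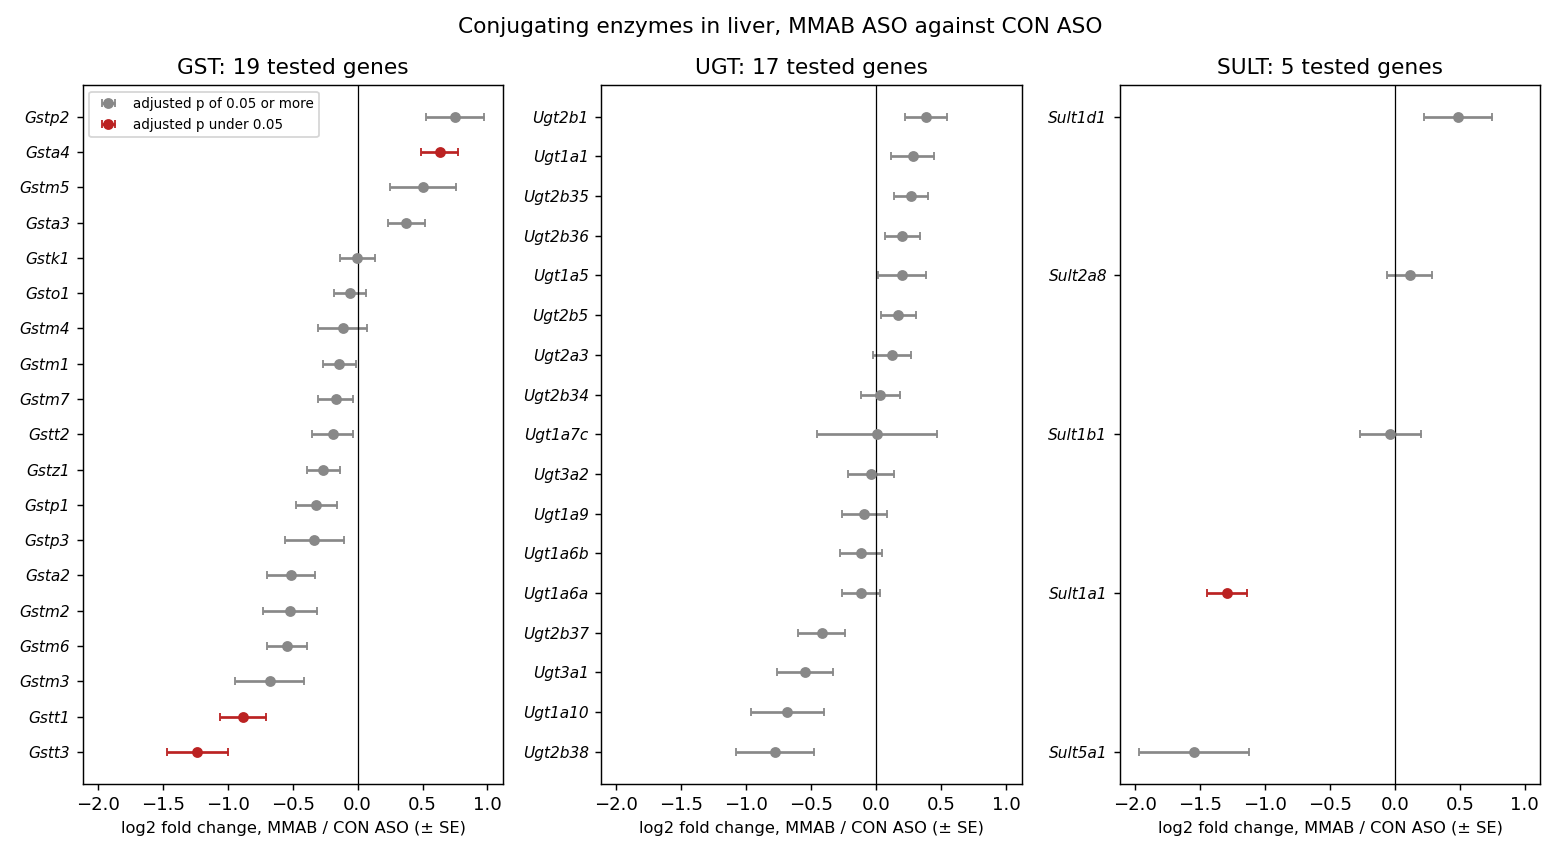
Log2 fold change of MMAB ASO over CON ASO (x axis) for each of the 41 tested conjugating enzyme genes (y axis), by family. Points are limma estimates, bars are ± 1 SE, and red marks an adjusted p under 0.05, which 3 GST genes, 0 UGT genes and 1 SULT gene reached.

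The clearest change lay in the sulfotransferases. *Sult1a1*, the main phenol sulfotransferase of liver, was at 223, 229 and 192 CPM in the CON ASO livers and at 95.3, 100.3 and 69.7 CPM in the MMAB ASO livers. The lowest control was thus well above the highest treated liver. The group means were 214.66 ± 20.02 and 88.4 ± 16.4 CPM (SD, n = 3 each), a fold of 0.408 and a log2 fold change of -1.29 ± 0.15 (SE, limma adjusted p = 0.00130). Dropping any of the 6 livers kept the call, with limma adjusted p from 3.04e-04 to 0.0131, and the fold change was -1.26 without CON ASO replicate 1. *Sult1a1* lies on the minus strand of chromosome 7 from 126672865 to 126676432 (GRCm38). It shares 61 exon bases with *Sgf29* on the opposite strand and 8.36% of its 45-base stretches with other genes.

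The promoters of the 3 genes that fell are printed to show the sequence around an annotated start site of each, as RefSeq gives them for GRCm38.p6, from 250 bases before to 50 bases after the start on the gene's own strand. Capitals mark matches to CCAAT on either strand, a common promoter element that occurs in 41.1% of all genes with such a window and in 19 of the 44 members that have a window.
Sult1a1 (chr7:126676369-126676668, minus strand): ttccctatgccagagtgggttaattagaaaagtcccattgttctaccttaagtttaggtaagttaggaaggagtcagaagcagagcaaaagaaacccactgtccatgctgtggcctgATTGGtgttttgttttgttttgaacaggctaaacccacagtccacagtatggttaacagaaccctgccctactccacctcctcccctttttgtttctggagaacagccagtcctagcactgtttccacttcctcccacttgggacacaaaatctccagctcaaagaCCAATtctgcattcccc
Gstt1 (chr10:75797682-75797981, minus strand): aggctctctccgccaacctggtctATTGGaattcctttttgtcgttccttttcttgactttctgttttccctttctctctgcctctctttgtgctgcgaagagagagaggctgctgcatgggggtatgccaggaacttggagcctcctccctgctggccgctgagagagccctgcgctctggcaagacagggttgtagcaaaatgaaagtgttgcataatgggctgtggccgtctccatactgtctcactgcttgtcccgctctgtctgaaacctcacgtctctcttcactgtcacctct
Gstt3 (chr10:75781373-75781672, minus strand, the first of 2 windows): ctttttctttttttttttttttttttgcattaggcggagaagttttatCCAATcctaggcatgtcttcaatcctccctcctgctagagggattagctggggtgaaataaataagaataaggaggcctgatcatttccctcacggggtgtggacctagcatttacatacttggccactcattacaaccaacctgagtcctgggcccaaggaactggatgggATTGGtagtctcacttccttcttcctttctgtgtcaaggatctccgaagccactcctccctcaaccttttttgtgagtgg
The start used for *Gstt1* lies 853 bases inside the gene as the table places it, and those of *Sult1a1* and *Gstt3* within 14 bases of the table's gene end. Which start sites the reads came from was not tested. The *Sult1a1* and *Gstt3* windows hold 2 matches each and the *Gstt1* window 1. Since CCAAT is about as frequent in other promoters, a match is a description of the letters and no more.

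None of the other 4 tested sulfotransferases passed the test. *Sult2a8*, which sulfates bile acids in mouse liver, was at 301, 189 and 252.5 CPM in controls and 278, 232 and 283 CPM in treated livers, with overlapping groups (log2 fold change 0.11 ± 0.17, limma adjusted p = 0.794). *Sult1d1*, known in mice for acting on catecholamines, was at 156, 67.2 and 75.8 CPM against 160.4, 107 and 127 CPM. Here CON ASO replicate 1 sat with the treated livers, and the difference of 0.49 ± 0.26 (limma adjusted p = 0.368) became 0.86 with an adjusted p of 0.0290 without that library. That was the 1 call in 6 fits without a liver, where limma adjusted p reached 0.673. *Sult1b1*, which acts on phenols and thyroid hormones, had overlapping groups and a difference of -0.035 on the log2 scale, whose sign turned under 6 of the 17 alternatives.

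The make-up of sulfotransferase RNA differed between the groups. *Sult1a1* was 32.1, 46.5 and 36.0% of the summed SULT CPM in the control livers and 17.5, 22.4 and 14.3% in the treated livers. The ratio of *Sult1a1* to *Sult1d1* was 1.43, 3.41 and 2.53 in controls and 0.594, 0.936 and 0.548 after MMAB ASO, and the treated livers did not overlap the controls. Ratios and sums of this kind were chosen after the values were seen, and where the groups do not overlap their exact two-sided permutation p is 0.1, the smallest that 3 against 3 allows. On a scale of CPM per kilobase of exon, *Sult1a1* was the highest sulfotransferase in controls (142) and fell to 58.7 after MMAB ASO, below *Sult2a8* (75.4 in controls and 80.4 after MMAB ASO).

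*Sult5a1* had the largest estimate of all members but not a call. It was at 3.75, 1.13 and 3.45 CPM in controls and 1.20, 0.788 and 0.627 CPM in treated livers, where CON ASO replicate 2 lay below MMAB ASO replicate 1. Its log2 fold change was -1.54 ± 0.42 (limma adjusted p = 0.0664), and without CON ASO replicate 2 it was -2.10 with an adjusted p of 7.90e-04. *Sult5a1* was called in 2 of the 6 fits without a liver, and its limma adjusted p reached 0.250 in the others. Below the filter lay *Sult1c2* (0.467 to 1.14 CPM), the estrogen sulfotransferase *Sult1e1* (0.217 to 0.724 CPM) and *Sult2a7* (0.238 to 0.702 CPM), and the groups overlapped for each.

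**Figure D2:**
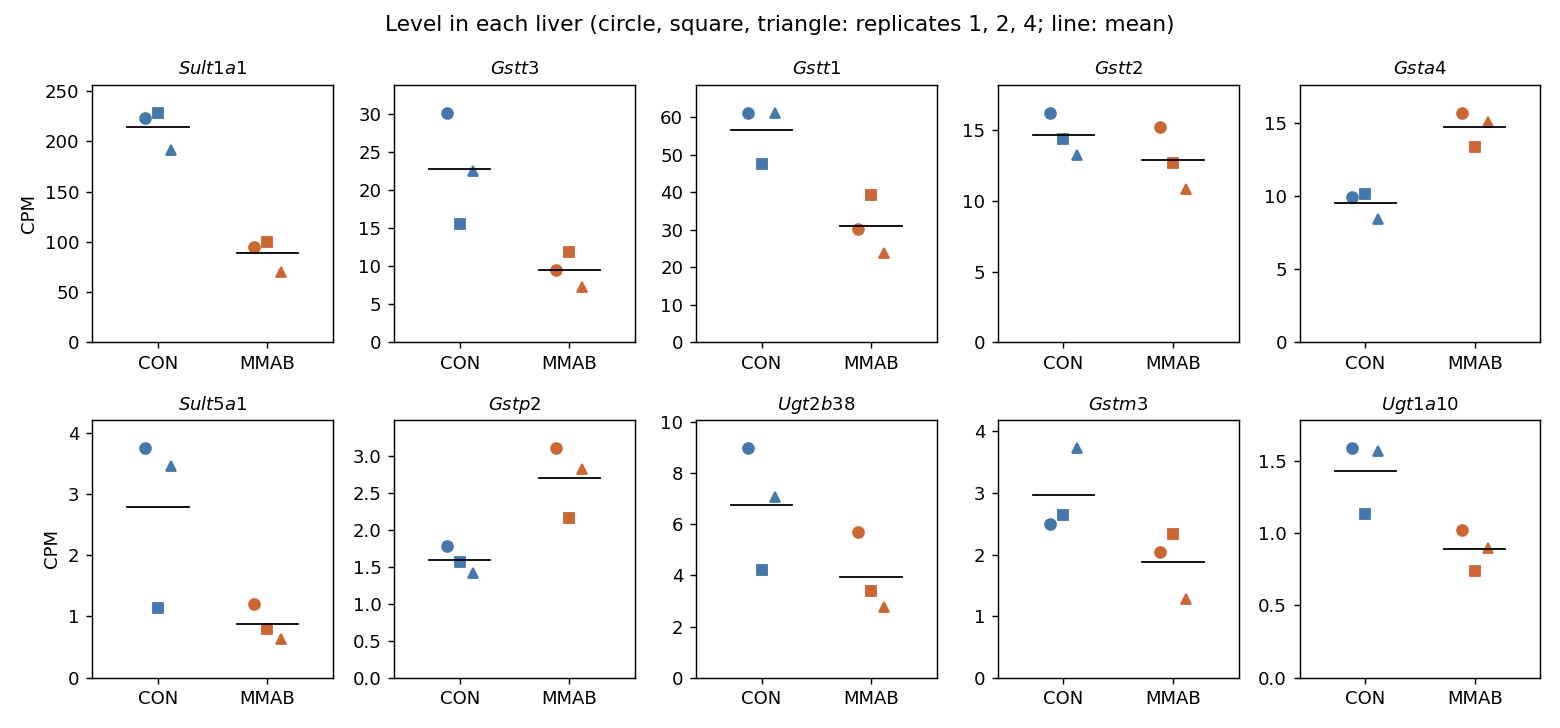
CPM (y axis, from 0) in each liver of both groups (x axis) for the 3 theta-class GST members and the members past an adjusted p of 0.05 or the study's thresholds. Symbols are replicates 1, 2 and 4 and lines are group means: *Sult1a1*, *Gstt1*, *Gstt3* and *Gsta4* do not overlap between groups, whereas CON ASO replicate 2 sits within the treated range for *Sult5a1* and *Ugt2b38*.

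Among the glutathione S-transferases, 2 of the 3 theta-class members fell. *Gstt1*, known for conjugating small halogenated compounds, was at 61.1, 47.6 and 61.3 CPM in controls and at 30.2, 39.3 and 23.9 CPM after MMAB ASO. All treated livers lay below all controls, with means of 56.7 ± 7.82 and 31.1 ± 7.75 CPM (SD, n = 3 each) and a log2 fold change of -0.88 ± 0.18 (limma adjusted p = 0.0181). *Gstt3*, a further theta-class enzyme, was at 30.2, 15.5 and 22.5 CPM in controls and at 9.49, 11.8 and 7.20 CPM after MMAB ASO. Its groups were also apart, with means of 22.7 ± 7.35 and 9.50 ± 2.31 CPM and a log2 fold change of -1.23 ± 0.23 (limma adjusted p = 0.0136). *Gstt2*, near them on chromosome 10, was at 16.3, 14.4 and 13.3 CPM against 15.2, 12.7 and 10.8 CPM. Those groups overlapped, and the difference of -0.19 ± 0.16 did not pass (limma adjusted p = 0.578).

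The theta members lie near each other on the minus strand of chromosome 10 (GRCm38): *Gstt3* from 75774115 to 75781414, *Gstt1* from 75783813 to 75798584 and *Gstt2* from 75831114 to 75837424. Within each liver, the ratio of *Gstt3* to *Gstt2* was 1.85, 1.07 and 1.70 in controls and 0.624, 0.932 and 0.665 after MMAB ASO. The ratio of *Gstt1* to *Gstt2* was 3.75, 3.31 and 4.62 against 1.99, 3.10 and 2.21, also with no overlap. No 45-base stretch of *Gstt1* occurs in another gene, while *Gstt3* shares 524 exon bases with the overlapping gene model *Gm20441*, which was not analysed here. Both calls depended on the livers used: *Gstt1* lost its call when control replicate 1 (-0.82, adjusted p = 0.0623), control replicate 4 (0.0996) or treated replicate 4 (0.0788) was dropped, and *Gstt3* when replicate 4 was dropped from the controls (0.0846) or from the treated livers (0.0585), in the same limma fit. Without CON ASO replicate 1 the *Gstt3* fold change was -1.003 and still called (limma adjusted p = 0.0463).

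In the alpha class 1 of 3 tested genes rose. *Gsta4*, which conjugates 4-hydroxynonenal, a product of lipid peroxidation, was at 9.98, 10.2 and 8.44 CPM in controls and at 15.7, 13.4 and 15.1 CPM after MMAB ASO. The treated livers were all higher, with means of 9.52 ± 0.943 and 14.7 ± 1.21 CPM (SD, n = 3 each) and a log2 fold change of 0.63 ± 0.14 (limma adjusted p = 0.0293). It lies on the plus strand of chromosome 9 from 78182774 to 78209349 (GRCm38) and shares no 45-base stretch with another gene. The call was lost when control replicate 4 (limma adjusted p = 0.0991), treated replicate 1 (0.106) or treated replicate 4 (0.123) was dropped, and held without CON ASO replicate 1 (0.67, adjusted p = 0.0420), in the same limma fit. *Gsta3*, the abundant alpha enzyme that detoxifies aflatoxin epoxide in mice, was at 262.9, 189 and 236.6 CPM against 277, 297 and 311 CPM. Its groups did not overlap, but the difference of 0.38 ± 0.14 did not pass (limma adjusted p = 0.195). *Gsta2* had a negative estimate, at 8.14, 8.47 and 5.89 CPM against 5.79, 5.45 and 4.43 CPM (-0.51 ± 0.18, limma adjusted p = 0.163). Its counts are uncertain because 53.4% of its 45-base and 28.4% of its 100-base stretches occur in other genes. These were mainly in *Gsta1*, which itself was under the filter at 0.172 to 0.440 CPM.

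No gene of the mu or pi class was called at the adjusted threshold. *Gstm1*, the most abundant mu enzyme, was at 394, 334 and 371 CPM in controls and 322, 352 and 323 CPM after MMAB ASO, with overlapping groups (log2 fold change -0.14 ± 0.13). *Gstm6* was lower in each treated liver, 26.1, 18.2 and 24.8 CPM against 15.6, 16.9 and 14.5 CPM (-0.54 ± 0.16, limma adjusted p = 0.0779). *Gstm3* passed the study's looser thresholds alone, with 2.50, 2.65 and 3.73 CPM against 2.04, 2.33 and 1.28 CPM (-0.68 ± 0.26, limma adjusted p = 0.203). Its reads are uncertain, as 30.9% of its 45-base stretches occur in other genes, and the same holds for 20.99% of those of *Gstm1*. For 100-base stretches the shares were lower, 13.8% for *Gstm3* and 5.86% for *Gstm1*. *Gstm2*, *Gstm4* and *Gstm7* had log2 fold changes of -0.52, -0.11 and -0.17 and *Gstm5* of 0.51, all with overlapping groups. Without CON ASO replicate 2, *Gstm2* and *Gstm6* passed at limma adjusted p of 0.0250 and 0.0153. For each gene that was the 1 call in 6 fits without a liver, and limma adjusted p reached 0.558 and 0.272 in the others.

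*Gstp1*, the pi enzyme that is known to be higher in male than in female mouse liver, had the highest level of all members on the scale of CPM per kilobase of exon, 519 in controls and 413 after MMAB ASO. Its CPM was 958, 680.5 and 773 in controls and 651, 617 and 649.9 in treated livers. The treated livers were all lower, by -0.32 ± 0.16 on the log2 scale, which did not pass (limma adjusted p = 0.317). Of the *Gstp1* stretches, 34.8% at 45 bases and 25.1% at 100 bases occur in *Gstp2*. *Gstp2*, at 1.79, 1.57 and 1.42 CPM against 3.11, 2.16 and 2.83 CPM, passed the study's thresholds but not the adjusted one (0.75 ± 0.22, limma adjusted p = 0.0924). It is uncertain, since 55.5% of its 45-base stretches occur in other genes, 50.3% in *Gstp1*, and 46.9% of its 100-base stretches do. The processed pseudogene *Gstp-ps* on chromosome 1, listed at 266 to 384 CPM, shares 73.1% of its own 45-base stretches with *Gstp2*. *Gstp3* was at 2.30, 2.40 and 2.76 CPM against 2.36, 1.52 and 2.12 CPM, with overlapping groups (-0.33 ± 0.23).

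None of the remaining GST genes was called. *Gstz1*, the maleylacetoacetate isomerase of tyrosine breakdown, was at 394, 321 and 354 CPM in controls and 307, 299 and 284 CPM after MMAB ASO. Each treated liver was lower, by -0.26 ± 0.13, without passing (limma adjusted p = 0.322), and 465 of its exon bases overlap *Pomt2* on the opposite strand. *Gstk1* of mitochondria and peroxisomes differed by -0.00044 and *Gsto1*, which also reduces dehydroascorbate, by -0.058. *Gsto2* was under the filter at 0 to 0.0825 CPM.

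Summed by class, Gstt was at 107.5, 77.5 and 97.0 CPM in controls and 54.9, 63.8 and 41.9 CPM after MMAB ASO, a log2 difference of -0.82. The Gsta sum was higher by 0.36 and the Gstp sum lower by -0.31, both without overlap, and the Gstm sum differed by -0.17 with overlap. The sum of all GST members overlapped between the groups. *Gsta3*, *Gstp1* and *Gstm1* have the highest level per kilobase of exon in their classes and the largest part of these sums.

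**Figure D3:**
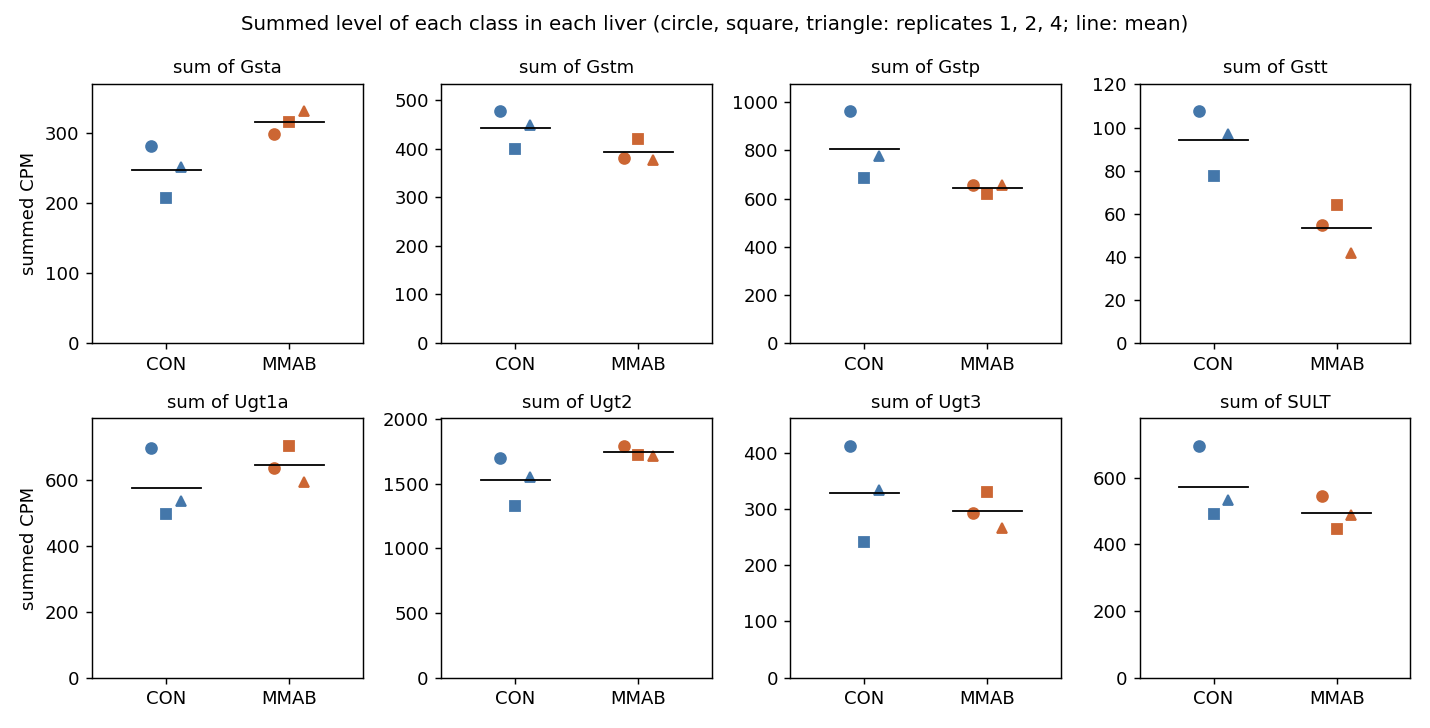
Summed CPM (y axis, from 0) of each class in each liver (x axis: group). Symbols are replicates 1, 2 and 4 and lines are group means: the Gstt and Gstp sums are lower and the Gsta and Ugt2 sums higher in every treated liver, and the Gstm, Ugt1a, Ugt3 and SULT sums overlap.

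No glucuronosyltransferase passed the adjusted threshold, and 5 of the 17 tested had an unadjusted limma p under 0.05, beside 17.8% of all tested genes. The 3 with the highest CPM had positive estimates. *Ugt2b5* was at 539, 459 and 494 CPM in controls and 546, 564 and 566 CPM in treated livers (0.17 ± 0.13, limma adjusted p = 0.556). *Ugt2b1* was at 299, 205 and 311 CPM against 363, 349 and 332 CPM (0.38 ± 0.16, limma adjusted p = 0.248). For both genes every treated liver was above every control by a small margin. *Ugt2b36*, *Ugt2b35*, *Ugt2a3* and *Ugt2b34* differed by 0.20, 0.27, 0.12 and 0.033, each with overlapping groups.

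The sum of the Ugt2 genes was 1701, 1330 and 1550.2 CPM in controls and 1792, 1723 and 1716 CPM after MMAB ASO, higher by 0.20 on the log2 scale (exact two-sided permutation p = 0.1, the smallest possible). Both Ugt2b genes under 10 CPM had negative estimates instead. *Ugt2b38* was at 8.99, 4.20 and 7.08 CPM against 5.69, 3.37 and 2.76 CPM (-0.78 ± 0.30, limma adjusted p = 0.194), past the study's thresholds although the groups overlap. Without CON ASO replicate 2 it passed the adjusted one (-1.09, limma adjusted p = 0.0200). That was the 1 call in 6 fits without a liver, where limma adjusted p reached 0.514. *Ugt2b37* was lower in each treated liver, by -0.42 ± 0.18 (limma adjusted p = 0.251). *Ugt2b38* shares 41.2% of its 45-base stretches with other genes, mainly *Ugt2b5*, *Ugt2b37* shares 21.9% and *Ugt2b5* itself 44.8%. For 100-base stretches the shares were 24.2%, 1.06% and 24.7% in the same order. The reads assigned to *Ugt2b38* and *Ugt2b5* are thus uncertain, and those of *Ugt2b37* less so at the longer length. *Ugt2a2* was at 0 to 0.0361 CPM.

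The 9 Ugt1a genes are spliced from alternative first exons on chromosome 1 to the same last exons, and each pair of them shares at least 1311 exon bases. Reads in that part cannot name a gene, so the authors' expectation-maximisation step divided them. *Ugt1a1*, the enzyme that glucuronidates bilirubin, was at 482, 314 and 357 CPM in controls and 457, 492 and 432 CPM after MMAB ASO (0.28 ± 0.16, limma adjusted p = 0.412). It made up 68.9, 63.3 and 66.5% of the summed Ugt1a CPM in controls and 71.5, 69.8 and 72.4% after MMAB ASO. The Ugt1a sum overlapped between groups (log2 difference 0.18, exact two-sided permutation p = 0.3).

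The other tested Ugt1a genes were not called either. The phenol-conjugating *Ugt1a6a*, *Ugt1a6b* and *Ugt1a9* differed by -0.12, -0.12 and -0.091 on the log2 scale, *Ugt1a5* by 0.20 and *Ugt1a7c* by 0.0036, all with overlapping groups. *Ugt1a10* was at 1.59, 1.13 and 1.57 CPM in controls and 1.02, 0.741 and 0.899 CPM in treated livers, past the study's thresholds but not the adjusted one (-0.68 ± 0.28, limma adjusted p = 0.230). *Ugt1a2* (0.278 to 1.25 CPM) and *Ugt1a8* (0 to 0.614 CPM) were under the filter.

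Motifs of regulators, a feature that the choice of genes did not use, were searched on both strands from 250 bases before to 50 after the start in the 44 members and all 27025 genes with a RefSeq window. The antioxidant response element, as TGACNNNGC, was in 3 members (*Gsta3*, *Gstm5* and *Gstm7*) and in 14.0% of all genes. The xenobiotic response core GCGTG was in 10 members and 35.2% of genes, and the STAT or BCL6-type TTCNNNGAA in 3 members (*Gsta1*, *Gstm6* and *Ugt1a6a*) and 9.55% of genes. None of these 3 motifs was found in the windows of *Sult1a1*, *Gstt1* or *Gstt3*. Sequence outside the windows was not searched, and the *Gstt1* start used lies 853 bases inside the gene as the table places it. Whether these regulators act on the 3 genes was not tested. *Gsta4*, *Gstt2*, *Sult2a7*, *Ugt1a6b* and *Ugt3a2* had no window.

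The Ugt3a genes, whose human counterparts use sugars other than glucuronic acid, differed from each other. *Ugt3a2* was at 332, 198 and 269 CPM in controls and 254, 276 and 232 CPM after MMAB ASO (-0.040 ± 0.18). *Ugt3a1*, its neighbour on chromosome 15, was at 79.8, 44.2 and 66.0 CPM against 38.9, 54.5 and 35.1 CPM (-0.55 ± 0.21, limma adjusted p = 0.200). Within each liver the ratio of *Ugt3a1* to *Ugt3a2* was 0.240, 0.223 and 0.246 in controls and 0.153, 0.197 and 0.151 in treated livers, with no overlap although the *Ugt3a1* levels themselves overlap. Without CON ASO replicate 2, *Ugt3a1* passed at a limma adjusted p of 0.0168. That was the 1 call in 6 fits without a liver, where limma adjusted p reached 0.514.

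Across the 41 tested members, CON ASO replicate 2 was the lowest of the 6 livers for 14 and MMAB ASO replicate 4 for 17, where 18.6% and 20.8% of all tested genes have their lowest value in those libraries. CON ASO replicate 1 was the highest for 17 members and the lowest for 0, against 34.2% and 7.46% of all tested genes. The sum of all 49 members was 5848, 4360 and 4983 CPM in the controls and 5073, 5038 and 4854 CPM after MMAB ASO, a log2 difference of -0.011 (exact two-sided permutation p = 1). The treated totals lay within the spread of the control totals.

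Genes that supply, export and regulate conjugation were read from lists. For sulfation, 7 of 8 listed genes of PAPS and sulfate supply were tested and 1 fell. *Slc26a1*, the sulfate and oxalate exchanger of the hepatocyte membrane, was at 92.6, 104.5 and 94.1 CPM in controls and 44.1, 66.1 and 44.3 CPM after MMAB ASO, with all treated livers lower (-0.94 ± 0.16, limma adjusted p = 0.00847). That call held in each of the 6 fits without a liver, at adjusted p from 9.04e-04 to 0.0488, and the fold change was -0.97 without CON ASO replicate 1 (limma adjusted p = 0.0249). *Papss2*, which makes PAPS, differed by -0.31 without passing (limma adjusted p = 0.334). The median of the list was -0.24.

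For glutathione, 0 of 7 tested genes of synthesis and recycling were called (median -0.083), and *Gclc* and *Gclm*, the subunits of the enzyme that limits glutathione synthesis, differed by 0.15 and -0.30. The microsomal transferases *Mgst1* and *Mgst3* differed by -0.23 and -0.84 and were not called (limma adjusted p = 0.528 and 0.130). For glucuronidation, 0 of 4 genes were called: *Ugdh*, which oxidises UDP-glucose to UDP-glucuronate, had a limma adjusted p of 0.103 (-0.48) and *Ugp2*, which makes UDP-glucose, of 0.135 (0.43). Of the exporters 0 of 4 tested genes were called (median -0.050), among them *Abcc2*, the canalicular pump for conjugates (0.13).

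Of 20 listed regulators, 18 were tested and 1 rose. *Bcl6*, a transcriptional repressor that binds STAT-type sites and is known for sex-dependent expression in mouse liver, was at 3.83, 6.12 and 5.75 CPM in controls and 19.95, 27.1 and 30.6 CPM after MMAB ASO, with no overlap (2.31 ± 0.20, limma adjusted p = 1.50e-04, and 2.10 with 0.00262 without CON ASO replicate 1). *Nr1i3*, which encodes CAR, was higher in each treated liver and fell short of the threshold (0.65 ± 0.17, limma adjusted p = 0.0535). *Nr1i2*, which encodes PXR, differed by 0.087, *Ahr* by 0.42, *Nfe2l2*, which encodes NRF2, by 0.21, *Keap1* by 0.019, *Hnf4a* by -0.084, *Stat5b* by 0.0034, *Cebpa* by -0.35 and *Cebpb* by 0.48, none of them called. Among tested target genes of these regulators, 0 of 6 for CAR and PXR, 0 of 3 for the aryl hydrocarbon receptor and 0 of 9 for NRF2 were called, with medians of -0.11, 0.18 and -0.011. From the aryl hydrocarbon receptor list, *Cyp1a1*, *Cyp1b1* and *Ahrr* were under the filter. *Cyp1b1* was at 0.314 to 0.705 CPM in controls and 1.07 to 1.22 CPM after MMAB ASO. *Ahrr* was at 0 against 0.0812 to 0.112 CPM, and the *Cyp1a1* groups overlapped.

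The labelled tissue was checked against markers of its cell types, and no marker listed in the table was at 0 in any library. The hepatocyte list, summed, was at 65136 to 75386 CPM in controls and 58618 to 71953 CPM after MMAB ASO, with 0 of 13 genes called and a median of -0.084. The sinusoidal endothelial list was at 56.6 to 85.8 CPM against 123 to 144 CPM (10 of 16 rose), and the stellate list at 87.0 to 116 CPM against 145 to 179 CPM (6 of 12 rose). The Kupffer cell list was at 119, 35.3 and 33.6 CPM in controls and 127, 76.2 and 97.8 CPM after MMAB ASO. CON ASO replicate 1 sat with the treated livers there, and 2 of 11 tested genes were called higher. *Marco* alone of these had a negative estimate, at 15.7, 0.813 and 0.805 CPM against 0.426, 0.134 and 0.380 CPM (-2.96, limma adjusted p = 0.108). The cholangiocyte list was at 22.4 to 34.3 CPM against 30.9 to 42.0 CPM, with 1 of 3 tested genes higher. The list of genes known to be higher in female liver, read because *Bcl6* and several conjugating enzymes differ by sex, summed to 5.88 to 6.74 CPM in controls and 3.71 to 5.64 CPM after MMAB ASO, with 0 called of 1 tested. The part of these shifts in the values of the conjugating enzymes was not tested.

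**Figure D4:**
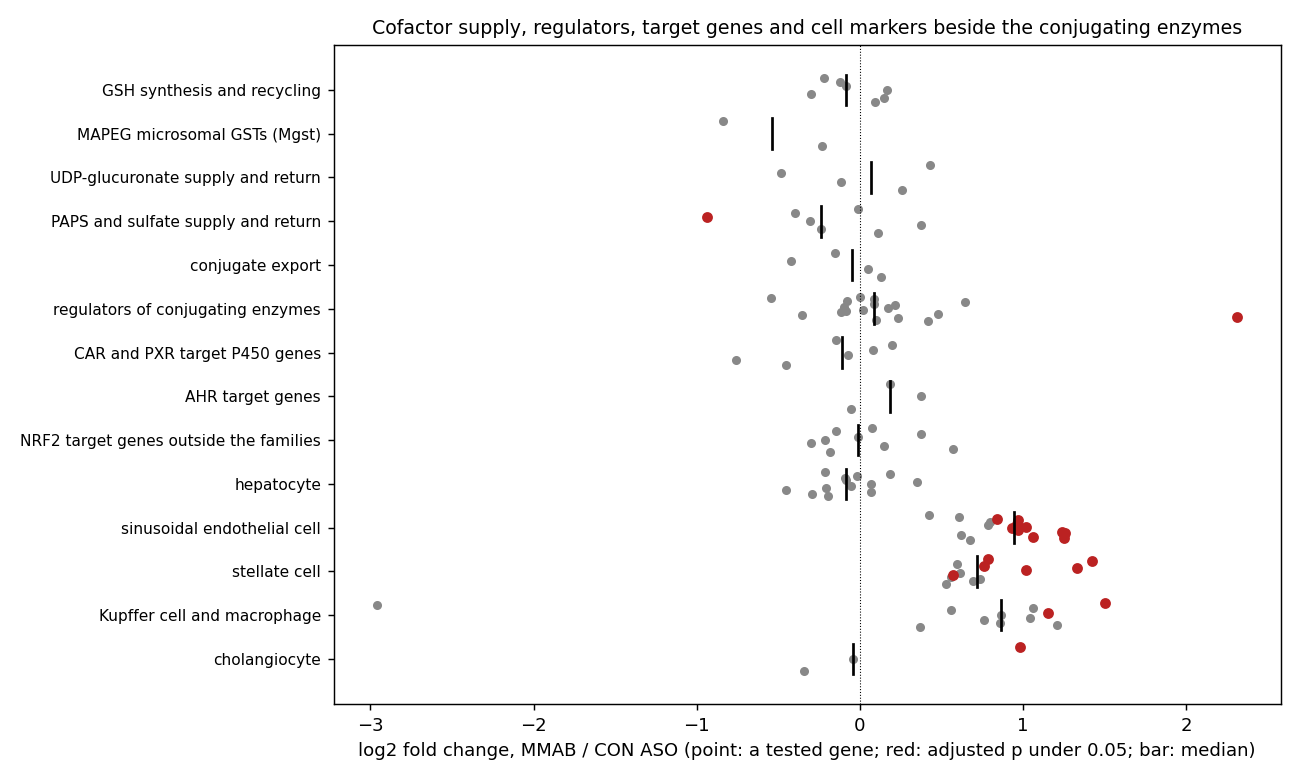
Log2 fold change of MMAB ASO over CON ASO (x axis) for each tested gene (points) of the supply, export, regulator, target and cell marker lists (y axis), with the median as a bar and red for an adjusted p under 0.05. *Bcl6* at 2.31 and *Slc26a1* at -0.94 are the called genes among the pathway lists, and the endothelial and stellate lists lie above 0.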

How the data were processed

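Liver RNA was depleted of ribosomal RNA and sequenced in 6 mice (3 per group). The authors aligned reads with STAR in Partek Flow 8.0.19.0405, quantified genes by Partek's expectation-maximisation step, scaled to the total count, added 0.0001 and deposited log2 values, which were turned back into CPM for display. Levels follow each library's total, and reads shared by near copies are estimates. Only 58.3 to 59.8% of values up to 20 reads were whole multiples of 1 read (tolerance 0.01), so no count test was run. The deposited log2 values of the 11565 genes averaging 1 CPM or more were fitted with limma 3.58.1 (R 4.3.3, variance trend, two-sided, Benjamini-Hochberg over all genes), which stands in for the Partek test, and tested on simulated data. Calls are adjusted p under 0.05. Folds are on the log2(CPM + 0.0001) scale. Class sums and ratios used exact two-sided permutation tests.

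Named with every value were members past either threshold, the 3 highest by CPM in each family, and the Gstt and Gstp classes. *Gsta2*, *Gsta3*, *Gstm6*, *Ugt3a1* and *Ugt3a2* were added after their values were seen. Members, lists and this rule were chosen with earlier results of these data known. Replicates were taken as separate mice, and the limma p-values set the group difference against the spread between these livers, moderated across genes. Alternatives changed the pseudocount, filter, scaling, variance prior, weights, replicate block and livers used. Exon sharing, as 45-base and for some members also 100-base stretches, came from GENCODE M21 (GRCm38), where 45 of 49 members have the table's start and end (not *Gsto2*, *Gstp1*, *Gstp2* and *Gstp3*). The study's methods give both 45 cycles and a read length of 100 bases. Values of a listed regulator and of a further promoter motif are not reported here.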

Additional observations from a re-analysis of the deposited data

How the results depend on the processing

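The count of 4 called members was 2 with no filter on low values and 2 without the variance trend, and the GST count of 3 was 1 under each of them, since *Gstt1* and *Gsta4* missed the threshold. Leaving out a liver gave 1 to 9 called members, 0 to 5 for GST, 0 to 2 for UGT and 1 to 2 for SULT, and 6 to 12 at the study's thresholds (9 with all livers). Those thresholds gave 5 members with a pseudocount of 1 and 5 with a mean of at least 5 CPM. Among 318 values of 19 named members under all alternatives, 298 kept direction and call, 12 lost and 6 gained a call. The sign turned for *Gstm1* (0.0027 under quantile normalization) and *Sult2a8* (-0.068 to 0.27 over the fits without a liver, negative without CON ASO replicate 2), neither called. *Sult1a1* was called under all 17 alternatives, and *Gstt3* under all 11 that kept every liver. The cause of these changes was not tested.

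Over all tested genes, same-numbered livers did not deviate together (correlations -0.020, 0.050 and -0.0055). Such a correlation cannot show pairing that acts on some genes only, so whether the numbers pair the livers was not settled. With the replicate block, SULT calls were 2 in place of 1, adding *Sult5a1* (-1.54, limma adjusted p = 0.0464), and 430 genes were called in place of 473. Over all genes, calls were 255 with no filter, 268 at a mean of at least 5 CPM and 768 with array weights. Dropping CON ASO replicate 1, 2 or 4 gave 386, 536 or 162 calls, and dropping MMAB ASO replicate 1, 2 or 4 gave 309, 390 or 157. The share of calls that were higher was 45.7%, 34.1% after median-ratio scaling, 39.4% after quantile normalization and 65.7% after scaling to the protein-coding sum, which moved the median of all genes to 0.12.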
